A study of Mus musculus with 6 samples.

Results

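Smoc2-positive, Pi16-negative cells are a state of fibro-adipogenic progenitors (FAPs), the Pdgfra-positive mesenchymal cells that lie between the fibers of skeletal muscle. FAPs lay down the collagen and proteoglycan of the tissue, supply muscle stem cells and fibers with growth factors, and respond to injury by dividing and secreting a provisional matrix. In uninjured muscle they are commonly divided into a Pi16- and Dpp4-positive state, regarded as progenitor-like and placed in the connective tissue sheaths, and an interstitial state that lies within the fiber bundles and carries Smoc2, Lum, and Cxcl14. Smoc2 encodes a secreted calcium-binding matrix protein.

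Members were chosen by their measured counts of these genes: cells with at least 1 UMI (unique molecular identifier, a tag that counts a captured mRNA molecule once) of Pdgfra, Dcn, and Smoc2 and none of Pi16 or of Ptprc, the leukocyte antigen CD45. Cells with at least 2 of 6 mitosis genes (Mki67, Top2a, Cdk1, Birc5, Cenpf, and Ccna2) or at least 2 of 4 injury matrix genes (Cthrc1, Tnc, Lrrc15, and Ltbp2) were kept out. This rule found 736 cells, which is 6.57% of the 11207 cells used and 23.0% of the 3204 cells with Pdgfra and Dcn and without Ptprc. The other cells of that gate were 1502 Pi16-positive cells, 578 injury matrix cells, 233 cycling cells, and 155 cells with neither Smoc2 nor Pi16.

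The cells came from the tibialis anterior muscle (TAM) of male mice aged 3 to 5 months. All were on a B6;129 background and carried the cell cycle reporter allele Gt(ROSA)26Sor<tm1(Fucci2aR)Jkn, and the study's methods describe the animals sequenced as lacking Cre. Hypothyroid mice ate an iodine-deficient diet with 0.15% propylthiouracil, a blocker of thyroid hormone synthesis, for 3 weeks before injury and after it, and control mice ate the matched diet. Muscle was taken uninjured (0 dpi) or at 5 or 14 days after cardiotoxin (dpi), a snake toxin that kills muscle fibers and was injected at 50 µg/ml. There was 1 library for each diet and day, with 3 mice pooled in each, so no difference between diets or days has a replicate check. The labels name the day as the batch, and batch and time after injury cannot be told apart. Nor can diet and library.

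Libraries held 2283740 to 23496509 UMIs with a median of 3634 to 8055 UMIs per cell. Control libraries held 244, 14, and 256 members at 0, 5, and 14 dpi and hypothyroid libraries 76, 28, and 118. Their UMIs added up to 1143051, 96807, and 1163838 in control and 311404, 134586, and 947694 in hypothyroid libraries. The pools at 5 dpi were thus the smallest, and 3 UMIs there correspond to 31.0 CPM (the UMIs of a gene as a rate of all UMIs of the pool, on the usual CPM scale) in control and 22.3 CPM in hypothyroid members. The median member had 3432 to 8057 UMIs, the most in the hypothyroid library at 14 dpi. The 6 files held 20269 columns, and 9062 that follow the first alphabetical run of barcodes in a file were not used, since 1680 of them copy a cell of another file. Barcodes found in more than 1 library numbered 12, none of them a member. All values in parentheses after a share, level, or ratio are 95% intervals that cover counting error only, not the spread between mice.

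The rule fixes that every member holds Smoc2, so its level is a description. Smoc2 stood at 3422, 1095, and 1423 CPM at 0, 5, and 14 dpi in control and 3398, 1323, and 865 CPM in hypothyroid libraries. Its level was highest in uninjured muscle on both diets and lower in every pool after injury. Among members, 96 held a single Smoc2 UMI, the most (52) in the control library at 14 dpi. Just outside the rule were 199 cells with Smoc2 and 1 UMI of Pi16, and 82 cells with exactly 2 injury matrix genes, 50 of them at 5 dpi. Of the members, 116 held 1 injury matrix gene. Of 1502 Pi16-positive cells, 853 also held Smoc2.

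Beyond the rule genes, the markers named for this state were Lum, a keratan sulfate proteoglycan that spaces collagen fibrils, Cxcl14, a chemokine, Abca8a, a lipid transporter, and Bmp5, a bone morphogenetic protein. To compare cells at equal depth, cells were thinned to 2000 UMIs, and cells with fewer were left out, which kept 219, 13, and 196 members at 0, 5, and 14 dpi in control and 66, 18, and 109 in hypothyroid libraries. In the control library at 0 dpi, 79% of 219 thinned members (73 to 84.2), 40.0% of Pi16-positive, 0% of CD45-positive, and 3.33% of endothelial cells held Lum. In the same library 58.9% of 219 thinned members (52.1 to 65.5), 14.5% of Pi16-positive, 1.85% of CD45-positive, and 0% of endothelial cells held Cxcl14. Abca8a was present there in 65.8% of 219 thinned members (59.1 to 72), 45.5% of Pi16-positive, 0% of CD45-positive, and 0% of endothelial cells. Bmp5 was present in 37% of 219 thinned members (30.6 to 43.8), 9.55% of Pi16-positive, 0% of CD45-positive, and 3.33% of endothelial cells. Each marker was thus held by a larger share of members than of Pi16-positive or CD45-positive cells in that library. Before thinning it held 60 CD45-positive and 60 endothelial cells, so the shares of these classes are coarse. Lum was held by most members in every library, but outside that library also by most Pi16-positive cells. In the control library at 5 dpi, 69.2% of 13 thinned members (38.6 to 90.9) and 63.6% of Pi16-positive cells held Lum. In the hypothyroid library at 14 dpi the Lum shares were 80.7% and 72.1%, and those of Cxcl14 27.5% and 15.2%. Unthinned, 91.4% of members of the control library at 0 dpi held Lum, 63.5% held Cxcl14, 79.9% held Abca8a, and 47.1% held Bmp5. Each of the markers was thus detected in members, Bmp5 in the fewest.

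The share of members among Pdgfra and Dcn cells was 48.3% (43.9 to 52.8) in uninjured control muscle and 43.2% (35.8 to 50.8) in uninjured hypothyroid muscle. At 5 dpi it was 5.41% (2.99 to 8.90) in control and 5.02% (3.36 to 7.17) in hypothyroid muscle. At 14 dpi it was 23.8% (21.3 to 26.5) in control and 18.7% (15.7 to 22.0) in hypothyroid muscle. The share was therefore lowest at 5 dpi on both diets and between the other days at 14 dpi. Among thinned cells, to which the rule was applied anew, the 5 dpi control share was 13.6% and the hypothyroid one 14.6%. These are not the same cells, since a thinned cell that lost its Pi16 or injury matrix UMIs could enter. In the hypothyroid library at 5 dpi 18 members were deep enough, and 30 thinned cells met the rule. With all columns of each file the 5 dpi shares were 19.5% and 14.1%, again the lowest of the 3 days in both settings. The rule itself moves cells that gain 2 injury matrix genes or 2 mitosis genes out of the count. Injury matrix cells made up 40.2% of the control gate and 55.7% of the hypothyroid gate at 5 dpi, and cycling cells 32.8% and 25.4%. Pi16-positive cells went from 44.6% at 0 dpi to 62.5% at 14 dpi in control muscle and from 51.7% to 63.9% in hypothyroid muscle.

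**Figure D1:**
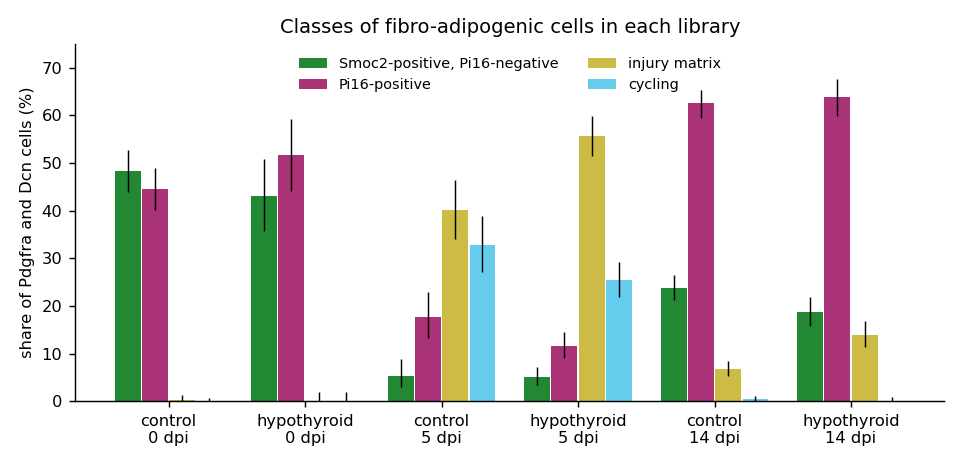
Share of cells with Pdgfra and Dcn and without Ptprc that fell in each class (y axis, %) in each of the 6 libraries (x axis, diet and day). Bars are shares and lines are exact 95% binomial intervals. Members made up 48.3% and 43.2% of the gate at 0 dpi, 5.41% and 5.02% at 5 dpi, and 23.8% and 18.7% at 14 dpi.

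The hypothyroid-to-control ratio of these shares was 0.894 (0.738 to 1.08) at 0 dpi, 0.928 (0.497 to 1.73) at 5 dpi, and 0.785 (0.646 to 0.954) at 14 dpi. These intervals are approximate, and the one at 14 dpi left out 1. Taken over all cells of a library in place of that gate, the ratios were 0.68 at 0 dpi, 2.25 at 5 dpi, where the direction turned, and 0.92 at 14 dpi. The libraries of that day differed in depth, with a median of 3638 UMIs in control and 8057 in hypothyroid members, and 967 of 3294 control and 269 of 1650 hypothyroid cells had under 2000 UMIs. Among the cells left, thinned to 2000 UMIs and classed anew by the rule, the shares were 29.8% in control and 30.3% in hypothyroid muscle, a ratio of 1.02. The lower share in hypothyroid muscle at 14 dpi was not seen among these thinned cells.

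Members were next compared with Pi16-positive cells of the same library, over 6 libraries, with limma on the pooled log2(CPM + 1) values and the library as a block. Of 5727 genes tested, 253 were higher in members (4.42%) and 254 lower (4.44%) at an adjusted p under 0.05. The cells were divided by Pi16 and Smoc2, so the test describes which genes went with that division, and genes of the rule were left out of the calls. A Pi16-positive cell needs 1 captured Pi16 molecule, and Pi16-positive cells had more UMIs, with medians of 6067 to 10162 per library against 3432 to 8057 in members. With cells thinned to 2000 UMIs and shallower cells left out, 102 genes were called, all among the 507. Differences below are members minus Pi16-positive cells on the log2(CPM + 1) scale, ± the standard error, with limma's Benjamini-Hochberg adjusted p.

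Genes of the interstitial list went together: 12 of 17 tested were higher in members and none lower, with a median log2 difference of 1.09, against -0.04 over all genes. The list was drawn up with earlier results on these cells known, so this count is not independent evidence. Cxcl14 in members stood at 3057, 5464, and 1175 CPM at 0, 5, and 14 dpi in control and 1676, 2497, and 775 CPM in hypothyroid libraries. In Pi16-positive cells Cxcl14 was at 255, 645, and 242 CPM at 0, 5, and 14 dpi in control and 301, 344, and 185 CPM in hypothyroid libraries. Members were above Pi16-positive cells in 6 of 6 libraries, with 2.72 ± 0.18 (adjusted p = 5.2e-05). Apod, a lipid-binding lipocalin, was also higher, with 2.16 ± 0.20 (adjusted p = 0.00033). Crispld2, a secreted protein, differed by 2.02 ± 0.24 (adjusted p = 0.0013). Hsd11b1, the enzyme that regenerates active glucocorticoid from its inert form, differed by 1.94 ± 0.25 (adjusted p = 0.0018). Bmp5 differed by 2.1 ± 0.28 (adjusted p = 0.002), Bmp4 by 0.87 ± 0.23 (adjusted p = 0.043), Abca8a by 1.05 ± 0.19 (adjusted p = 0.0088), and Lum by 0.90 ± 0.20 (adjusted p = 0.024).

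Genes of the progenitor list went the other way, with 16 of 17 tested lower in members and none higher. Sema3c, a secreted semaphorin, differed by -3.07 ± 0.18 (adjusted p = 3.7e-05). Dpp4, a cell surface peptidase that is used to sort the progenitor-like state, differed by -3.79 ± 0.56 (adjusted p = 0.0037). Cd55, an inhibitor of complement on the cell surface, differed by -2.18 ± 0.14 (adjusted p = 4.2e-05), Fbn1, the main microfibril protein, by -1.57 ± 0.11 (adjusted p = 5.5e-05), and Igfbp5, an IGF binding protein, by -2.13 ± 0.15 (adjusted p = 5.2e-05). Wnt2, a Wnt ligand, was close to absent from members at 3.5, 0, and 5.16 CPM at 0, 5, and 14 dpi in control and 0, 0, and 11.6 CPM in hypothyroid libraries, and differed by -5.02 ± 0.57 (adjusted p = 0.0009). Where a member pool held no Wnt2 UMI, the difference sets 0 CPM against the Pi16-positive level, so its direction is shown but not its size. Has1, a hyaluronan synthase, was the member of the list that was not called, with -0.70 ± 0.35 (adjusted p = 0.25).

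**Figure D2:**
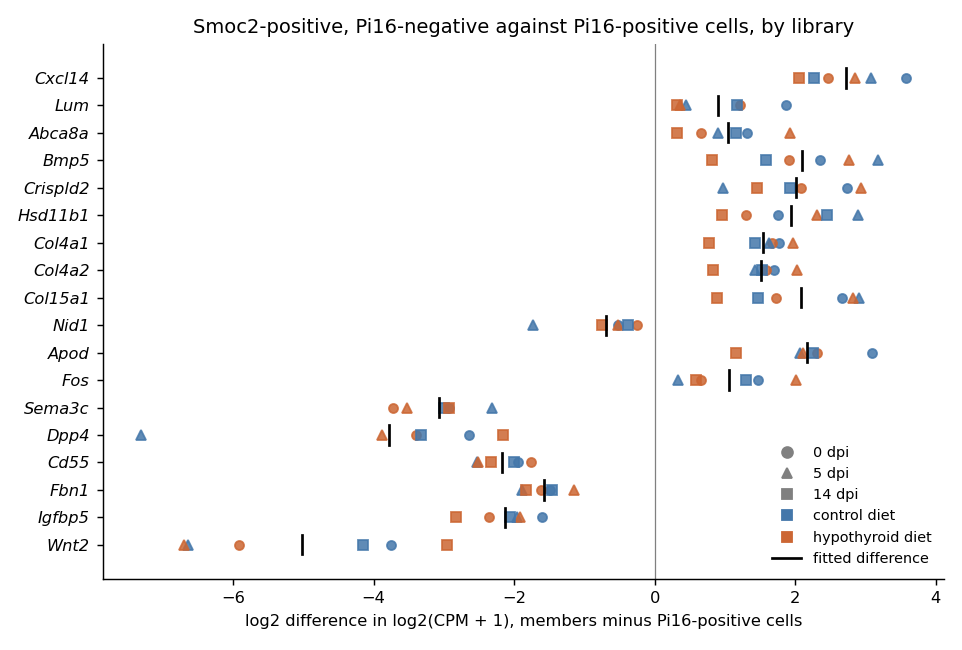
Difference in log2(CPM + 1) between pooled members and pooled Pi16-positive cells (x axis) for 18 named genes (y axis), 1 point per library, colored by diet and shaped by day, with the fitted difference as a black bar. All 6 points of the genes from Cxcl14 to Col15a1, of Apod, and of Fos lie right of 0, and all 6 points of Nid1 and of the genes from Sema3c to Wnt2 lie left of it.

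The basement membrane is the sheet of type IV collagen, laminin, nidogen, and perlecan that surrounds each muscle fiber and capillary. Of 14 genes of that list tested, 7 were higher in members and 1 lower, with a median log2 difference of 0.44. Col4a1 and Col4a2 encode the chains of the common type IV collagen, in which a pair of α1 chains is wound with an α2 chain. Col4a1 in members stood at 1386, 744, and 1809 CPM at 0, 5, and 14 dpi in control and 1005, 936, and 949.7 CPM in hypothyroid libraries. In Pi16-positive cells Col4a1 was at 406, 240.3, and 671 CPM at 0, 5, and 14 dpi in control and 315, 239, and 556 CPM in hypothyroid libraries. Members were higher in 6 of 6 libraries, with 1.54 ± 0.15 (adjusted p = 0.00042). Col4a2 differed by nearly the same amount, 1.52 ± 0.15 (adjusted p = 0.00045).

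Col4a1 (chr8:11248423-11362827 in mm39, the build of the files) and Col4a2 (chr8:11362805-11499288) lie head to head and are read in opposite directions. Their promoter windows (RefSeq, GRCm38.p6, 250 bases before to 50 after each start site) are shown because both genes were called together and the windows share sequence. Col4a1 is on the minus strand at chr8:11312777-11313076 of that build and Col4a2 on the plus strand at chr8:11312555-11312854. Capitals mark the 78 bases that lie in both windows, read from opposite strands:
Col4a1: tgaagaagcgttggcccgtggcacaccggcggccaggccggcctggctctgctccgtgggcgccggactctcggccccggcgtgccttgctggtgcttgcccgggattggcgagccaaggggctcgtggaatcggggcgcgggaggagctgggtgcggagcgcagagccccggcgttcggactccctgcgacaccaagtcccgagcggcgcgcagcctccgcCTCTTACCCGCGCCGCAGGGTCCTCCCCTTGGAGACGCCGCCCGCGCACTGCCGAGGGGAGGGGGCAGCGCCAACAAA
Col4a2: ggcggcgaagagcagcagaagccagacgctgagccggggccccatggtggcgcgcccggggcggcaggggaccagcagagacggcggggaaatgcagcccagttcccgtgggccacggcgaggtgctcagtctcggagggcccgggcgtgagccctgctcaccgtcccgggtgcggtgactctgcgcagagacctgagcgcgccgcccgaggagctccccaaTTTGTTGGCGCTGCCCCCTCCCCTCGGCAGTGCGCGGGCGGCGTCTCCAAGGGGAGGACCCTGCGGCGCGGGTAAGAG
The windows are 74.0% and 73.7% G and C. The letters CCAAT, searched on both strands, were found 1 time in each window, with none wholly within the shared stretch, and the match of Col4a2 crosses its edge. The letters GGGCGG were found 1 time in the Col4a1 window and 3 times in that of Col4a2, with 1 of these matches in the shared stretch. Among 32851 promoter windows of the same length, 37.4% held CCAAT and 35.7% held GGGCGG. A match is a description of letters, not a binding site.

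The other basement membrane genes called higher were Col15a1, Col18a1, Nid2, Hspg2, and Lama2. Col15a1 and Col18a1 encode the collagens with endostatin-type ends that border basement membranes, and they differed by 2.08 ± 0.27 (adjusted p = 0.0018) and by 1.49 ± 0.26 (adjusted p = 0.0076). Hspg2, perlecan, differed by 0.58 ± 0.15 (adjusted p = 0.04), Lama2, the laminin chain of muscle fibers, by 0.62 ± 0.16 (adjusted p = 0.039), and Nid2 by 1.13 ± 0.22 (adjusted p = 0.014). Nid1, the paralog of Nid2, was the gene called lower, with -0.69 ± 0.18 (adjusted p = 0.041). Nid1 and Nid2 thus went opposite ways, each in 6 of 6 libraries. The fibrillar collagens Col1a1 and Col3a1 were not called, with 0.17 ± 0.16 (adjusted p = 0.55) and 0.05 ± 0.17 (adjusted p = 0.88), while Col6a3, a chain of microfibrillar collagen VI, was higher by 1.38 ± 0.19 (adjusted p = 0.0022).

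Members also differed from Pi16-positive cells in secreted signals. Of 21 trophic genes tested, 6 were higher and 4 lower. Ptn and Mdk, the related heparin-binding growth factors pleiotrophin and midkine, were higher by 2.6 ± 0.37 (adjusted p = 0.003) and 1.97 ± 0.32 (adjusted p = 0.006). Igfbp3 and Igfbp7 were higher by 1.4 ± 0.24 (adjusted p = 0.0071) and 1.34 ± 0.13 (adjusted p = 0.0005), and Igf1 by 0.76 ± 0.15 (adjusted p = 0.015), while Igfbp5 was lower. Gas6, a ligand of the receptor kinases Axl and Mertk, was higher by 1.1 ± 0.18 (adjusted p = 0.0059). Among 23 chemokine and complement genes, 4 were higher and 4 lower. Cxcl12, the ligand of Cxcr4, was higher by 1.17 ± 0.23 (adjusted p = 0.014), while C3, the central complement component, and Ccl2, which draws monocytes, were lower, with -1.32 ± 0.09 (adjusted p = 4.8e-05) and -1.35 ± 0.27 (adjusted p = 0.014).

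Of the genes with the largest differences, those higher in members were Septin4, Mylk, Lsamp, Ptpre, Mmp3, Gpm6b, and Tmem176b beside Cxcl14, Ptn, and Apod. Septin4, a filament-forming GTPase, differed by 3.12 ± 0.64 (adjusted p = 0.016). Lsamp and Gpm6b, a cell adhesion protein and a membrane proteolipid best known from neurons, differed by 2.53 ± 0.38 (adjusted p = 0.0041) and 2.17 ± 0.37 (adjusted p = 0.0071). Mmp3, the matrix protease stromelysin, differed by 2.36 ± 0.55 (adjusted p = 0.028). Those lower in members were Dmkn, Ereg, Cxcl3, Pdgfc, Wnt2, Sbsn, Krtdap, Csf2, Cmah, and Plet1. Dmkn, Sbsn, and Krtdap, secreted proteins best known from epidermis, differed by -5.56 ± 0.76 (adjusted p = 0.0024), -4.98 ± 0.36 (adjusted p = 5.5e-05), and -4.92 ± 0.76 (adjusted p = 0.0046). Members held 1.89 CPM of Dmkn on average, against 96.4 CPM in Pi16-positive cells. At levels this near 0 the size of a log2 difference, and so the order of such genes, depends on the 1 added to each CPM.

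Immediate-early genes, which cells induce within minutes of stimulation and also during tissue dissociation, were higher in members for 11 of 19 tested and lower for none. Fos differed by 1.06 ± 0.20 (adjusted p = 0.012) and Jun by 1.16 ± 0.16 (adjusted p = 0.0025). The summed level of the list was 8344 to 22784 CPM in members and 6357 to 14787 CPM in Pi16-positive cells. Its part in the other differences was not tested. In the thinned cells the calls lost among the genes named here were those of Lum, Abca8a, Bmp5, Crispld2, Mylk, Lsamp, Mmp3, Cxcl3, Cxcl12, Ccl2, Nid1, Nid2, Hspg2, Lama2, and Col18a1, and without the control library at 0 dpi, which left 230 calls, those of Septin4, Mmp3, Cmah, Lum, Cxcl12, Fos, Nid1, Hspg2, and Lama2. Without the control library at 14 dpi 271 genes were called, and without the hypothyroid library at 0 dpi 325.

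Collagen genes of members stood higher after injury on both diets. Between 0 and 14 dpi, 296 of 5828 genes were at least 2-fold higher in control members (5.08%) and 267 lower (4.58%), and in hypothyroid members 767 of 5823 were higher (13.2%) and 1172 lower (20.1%). With every ratio divided by the median ratio, 64.8% of the control calls were higher in place of 52.6%, and 51.6% of the hypothyroid calls in place of 39.6%. With all columns 51 genes were called in control members. Genes entered these counts with a mean of at least 20 CPM over the 6 member pools. Of 12 collagen genes of the fibrillar list, 9 were at least 2-fold higher at 14 dpi in control and 8 in hypothyroid members, and none was lower. Col1a1, the main chain of type I collagen, stood at 1203, 7014, and 5996 CPM at 0, 5, and 14 dpi in control and 732, 6605, and 3504 CPM in hypothyroid libraries. Its 14-to-0 dpi ratio was 4.98 (4.7 to 5.28) in control and 4.79 (4.18 to 5.5) in hypothyroid members. Col3a1, the homotrimer of type III collagen, stood at 2103, 11755, and 13675 CPM at 0, 5, and 14 dpi in control and 1207, 9013, and 6814 CPM in hypothyroid libraries, with ratios of 6.5 (6.23 to 6.79) and 5.64 (5.09 to 6.28). Both genes were thus higher on both later days than at 0 dpi in both diets. The rise was not particular to members. In Pi16-positive cells the summed fibrillar list stood at 6462, 39441, and 26087 CPM at 0, 5, and 14 dpi in control libraries. In hypothyroid libraries it stood there at 3737, 26978, and 19893 CPM.

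Postn, a matricellular protein of healing wounds, was almost absent from uninjured members. It stood at 8.75, 1921, and 545 CPM at 0, 5, and 14 dpi in control and 22.5, 1858, and 1294 CPM in hypothyroid libraries. Members with Postn were 2 of 244 and 1 of 76 at 0 dpi and 108 of 256 and 69 of 118 at 14 dpi. Timp1, an inhibitor of matrix proteases, stood at 14, 2386, and 151 CPM at 0, 5, and 14 dpi in control and 9.63, 453, and 268 CPM in hypothyroid libraries, so it was highest at 5 dpi in both diets. Igfbp3 was at 164, 279, and 1006 CPM at 0, 5, and 14 dpi in control and 106, 119, and 1340.1 CPM in hypothyroid libraries, with 14-to-0 dpi ratios of 6.15 (5.27 to 7.22) and 12.6 (8.96 to 18.5), so it was highest at 14 dpi in both diets. Eln, the core of elastic fibers, was at 63, 527, and 284 CPM at 0, 5, and 14 dpi in control and 32.1, 134, and 63.3 CPM in hypothyroid libraries.

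Most genes that mark the interstitial state, though not all, were lower after injury. Of 18 genes of that list kept, 10 were at least 2-fold lower at 14 dpi than at 0 dpi in control members and 14 in hypothyroid members, with 1 higher in each. Lum did not fall by its median over members. That median was 1417 CPM at 0 dpi and 1676 CPM at 14 dpi in control, and 1126 and 1290 CPM in hypothyroid libraries. Hsd11b1 stood at 369, 82.6, and 87.6 CPM at 0, 5, and 14 dpi in control and 472, 96.6, and 43.3 CPM in hypothyroid libraries. Its 14-to-0 dpi ratio was 0.237 (0.189 to 0.295) in control and 0.0916 (0.0632 to 0.13) in hypothyroid members. Crispld2 stood at 718, 41.3, and 208 CPM at 0, 5, and 14 dpi in control and 771, 178, and 192 CPM in hypothyroid libraries, with ratios of 0.289 (0.25 to 0.335) and 0.249 (0.204 to 0.303). Both genes were thus low on both later days in both diets. Abca8a stood at 979, 238, and 541 CPM at 0, 5, and 14 dpi in control and 848, 364, and 266 CPM in hypothyroid libraries. Bmp4 was at 94.5, 20.7, and 19.8 CPM at 0, 5, and 14 dpi in control and 128, 37.2, and 21.1 CPM in hypothyroid libraries, and G0s2, an inhibitor of triglyceride breakdown, at 157, 10.3, and 26.6 CPM at 0, 5, and 14 dpi in control and 99.5, 59.4, and 19 CPM in hypothyroid libraries. Cxcl14 did not follow this order, since its level was highest at 5 dpi on both diets, with 5-to-0 dpi ratios of 1.79 (1.63 to 1.96) in control, where 9 of 14 members held it, and 1.49 (1.29 to 1.71) in hypothyroid members. With all columns of each file these ratios were 0.778 and 0.738, so the direction turned.

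**Figure D3:**
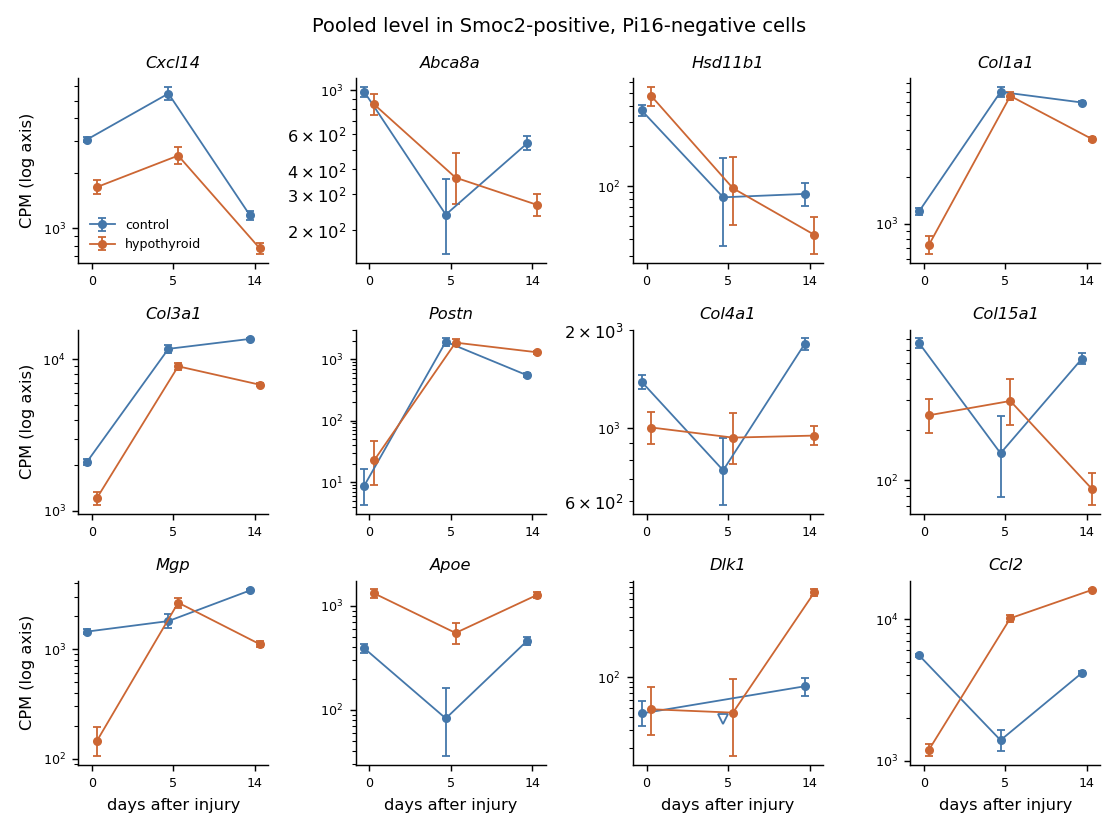
Pooled level in members (y axes, CPM on log scales) at 0, 5, and 14 days after injury (x axes) for 12 genes in control and hypothyroid libraries, with exact 95% Poisson intervals for counting error. An open triangle marks the upper limit where a pool held no UMI. Col1a1, Col3a1, and Postn were higher on both later days than at 0 dpi in both diets, and Apoe was higher in the hypothyroid pool on all 3 days.

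By the interval end nearest 1, the other genes highest at 14 against 0 dpi were Fabp4, Hmga2, and Cdh5 in control members and Cxcl5, Il1rl1, Csf2, and Cxcl3 in hypothyroid members. Cdh5 is the cadherin of endothelial junctions, and the summed level of the 6 endothelial markers in control members was 28.0 CPM at 0 dpi and 266 CPM at 14 dpi. The part of endothelial RNA in these values was not tested. Il1rl1, the receptor of IL-33, stood at 2.62, 909, and 328 CPM at 0, 5, and 14 dpi in control and 0, 215, and 864 CPM in hypothyroid libraries, so uninjured members had none or next to none, and at 5 dpi in control a single cell held all of its UMIs. Those lowest at 14 dpi were Ces1d, Gm45570, Hlf, and Nefm in control and Gstp1, Hspa1a, Hsd11b1, and Enpp2 in hypothyroid members. Enpp2, the lysophosphatidic acid synthase autotaxin, stood at 465, 31, and 111 CPM at 0, 5, and 14 dpi in control and 427, 119, and 46.4 CPM in hypothyroid libraries. Hlf, a circadian output factor, stood at 114, 20.7, and 9.45 CPM at 0, 5, and 14 dpi in control and 135, 37.2, and 19 CPM in hypothyroid libraries. At 5 against 0 dpi, the highest genes were Postn, Il1rl1, Cxcl5, and Il11 in control and Postn, Cxcl5, Fabp4, and Comp in hypothyroid members. The lowest were Gstm1, Hbb-bs, Phldb1, and Rarres2 in control and Stk40, Letm2, Creb5, and Gm17056 in hypothyroid members. Without the member with most UMIs of the gene in each pool, the 5-to-0 dpi ratio was 1.15 for Il11 in control and 1.78 for Fabp4 in hypothyroid members.

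In uninjured muscle, 220 of 5806 genes were at least 2-fold higher in hypothyroid than in control members (3.79%) and 351 lower (6.05%). Of these, 115 differed the same way and 26 the other way, at least 2-fold, in Pi16-positive cells. The share of all genes that far apart in Pi16-positive cells is not given here, so these counts are a description only. Thinned to 2000 UMIs per cell, the pools gave 1084 calls. Mgp, an inhibitor of calcification of matrix and vessels, stood at 1441, 1797, and 3415 CPM at 0, 5, and 14 dpi in control and 145, 2645, and 1108 CPM in hypothyroid libraries. Its hypothyroid-to-control ratio at 0 dpi was 0.10 (0.0729 to 0.135) in members and 0.0948 (0.0526 to 0.158) in Pi16-positive cells. Mgp was found in 171 of 244 control and 18 of 76 hypothyroid members at 0 dpi. At 14 dpi the ratio was 0.324 (0.303 to 0.347), while at 5 dpi the hypothyroid pool was not the lower, with a ratio of 1.47 (1.22 to 1.77).

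Apoe, a lipid carrier, was higher in hypothyroid members. It stood at 391, 82.6, and 463 CPM at 0, 5, and 14 dpi in control and 1323, 549.8, and 1277 CPM in hypothyroid libraries, with a ratio of 3.38 (2.95 to 3.88) at 0 dpi, 6.65 (3.21 to 16) at 5 dpi, and 2.76 (2.49 to 3.06) at 14 dpi. Apod stood at 4693, 1746, and 2763 CPM at 0, 5, and 14 dpi in control and 10466, 5885, and 4125 CPM in hypothyroid libraries, with ratios of 2.23 (2.13 to 2.33), 3.37 (2.85 to 4.0), and 1.49 (1.42 to 1.56). Both lipid carriers were thus higher in the hypothyroid pool on every day, Apod by less than 2-fold at 14 dpi. In Pi16-positive cells the Apoe ratio was 4.84 (3.75 to 6.28) at 0 dpi and 4.06 (3.74 to 4.4) at 14 dpi, and that of Apod 3.83 (3.52 to 4.17) and 3.19 (3.06 to 3.34).

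Matrix genes were lower in uninjured hypothyroid members without passing 2-fold as a group. Among 12 fibrillar list collagens, 11 had a ratio under 1 and none was 2-fold lower, with a median ratio of 0.632 against 1.01 over all genes. Among 15 basement membrane genes, 14 had a ratio under 1 and 3 were 2-fold lower. Col15a1 was one of them, at 0.37 (0.288 to 0.469), and Sparc, a collagen-binding matricellular protein, another, at 0.471 (0.419 to 0.528). Summed, the fibrillar list was also lower in other hypothyroid pools, from 6462 to 3737 CPM in Pi16-positive and 1336 to 215 CPM in endothelial cells. The basement membrane list went from 6399 to 4179 CPM and from 3449 to 1953 CPM in these classes. The endothelial pools held 60 control and 13 hypothyroid cells. The lower matrix levels were thus not particular to members. Id1, a BMP target, was higher at 6.75 (4.06 to 11.5), and Id3 at 2.13 (1.86 to 2.43). Without the member with most UMIs of the gene in each pool, Id1 was at 3.23 and Id3 at 1.72. Socs3 and Zfp36, feedback inhibitors of cytokine signals and mRNA stability, were higher at 2.3 (1.97 to 2.69) and 2.03 (1.81 to 2.27), and Zfp36 was at 1.99 without that member.

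Tuba4a and Actn3, tubulin and actinin of fast muscle fibers, were higher at 6.26 (4.03 to 9.86) and 3.8 (2.91 to 4.97), and so was Des at 3.01 (2.27 to 3.98), which also differed in immune and endothelial cells. The hypothyroid library at 0 dpi held 32 immune and 13 endothelial cells, and 3 endothelial UMIs there correspond to 49.7 CPM. Few genes could thus be seen to differ in both classes. The summed level of 8 muscle fiber genes at 0 dpi was 5472 CPM on the control and 12826 CPM on the hypothyroid diet, and 2 or more of them were found in 706 of 736 members. Sox4 and Inhba were higher, but 1 cell each carried 72.9% and 85.6% of the hypothyroid UMIs. Fmod, Comp, and Tac1 were listed lower, with no UMI in hypothyroid members, and came from 8, 9, and 6 of 244 control members. Fmod and Comp belong to the tenocyte list, whose 6 genes added up to 454 CPM on the control and 41.7 CPM on the hypothyroid diet. Without members that held 2 tenocyte genes the Fmod ratio came to 2.16. The hypothyroid pool, still without a UMI, was set there at the floor of 3 counts. The value is thus a bound and shows no higher level in hypothyroid members. Hbb-bs, hemoglobin, was lower with 80.2% of control UMIs in 1 cell. Prg4, lubricin, was lower at 0.109 (0.0631 to 0.176) and also in immune and endothelial cells. The part of fiber, tendon, and red cell RNA in these values was not tested.

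At 14 dpi, 191 of 5828 genes were at least 2-fold higher in hypothyroid than in control members (3.28%) and 594 lower (10.2%). In Pi16-positive cells 149 of them differed the same way and 3 the other way, again a description without the share over all genes. Thinned to 2000 UMIs per cell, the pools gave 1319 calls, 35.5% of them higher, and with all columns there were 466, 11.8% of them higher, in place of 24.3%. Dlk1, a Notch-family ligand that holds back adipogenesis, led the order. It stood at 43.7, 0, and 81.6 CPM at 0, 5, and 14 dpi in control and 48.2, 44.6, and 706 CPM in hypothyroid libraries. Its ratio was 8.65 (6.97 to 10.8) in members and 12.4 (11 to 14.1) in Pi16-positive cells. At 14 dpi 48 of 118 hypothyroid and 32 of 256 control members held Dlk1, and after thinning 29.4% of 109 thinned members (21 to 38.8), 27.4% of Pi16-positive, 2.31% of CD45-positive, and 2.99% of endothelial cells did in the hypothyroid library, against 8.67% of thinned control members.

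Some chemokines and cytokines of members were higher in the hypothyroid library at 14 dpi. Of 25 chemokine and complement genes kept, 5 were at least 2-fold higher and 2 lower, with a median ratio of 0.968. Ccl2 stood at 5544, 1395, and 4171 CPM at 0, 5, and 14 dpi in control and 1191, 10127, and 16040.0 CPM in hypothyroid libraries. Its ratio was 0.215 (0.193 to 0.239) at 0 dpi and 3.85 (3.72 to 3.97) at 14 dpi, so the direction differed between the days. Ccl7, a related monocyte chemokine, had a ratio of 2.84 (2.73 to 2.95), and Cxcl5, a neutrophil chemokine, 4.64 (4.25 to 5.06). Il33, an alarmin that sustains regulatory T cells in muscle, had a ratio of 5.87 (4.91 to 7.05), Csf1, the macrophage growth factor, 1.72 (1.64 to 1.81), and Cxcl1 1.63 (1.58 to 1.67). In Pi16-positive cells the ratios were 1.81 (1.79 to 1.83) for Ccl2, 1.99 (1.95 to 2.02) for Ccl7, 1.88 (1.81 to 1.95) for Cxcl5, and 1.54 (1.45 to 1.65) for Il33. The ratios of these 4 genes were larger in members, which was not tested over libraries.

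Other secreted factors that were higher were Pdgfa at 2.55 (2.0 to 3.28) and Postn at 2.37 (2.16 to 2.62), and Vegfa was at 1.76 (1.56 to 1.98). Lgals3, galectin-3, was higher at 2.37 (1.89 to 2.99) and also in immune and endothelial cells. Lmcd1, a LIM domain protein, was higher at 5.81 (3.3 to 10.9), from 14 of 118 members. Of 20 trophic genes kept, 3 were at least 2-fold higher and 4 lower.

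Structural matrix genes were lower. Of 15 basement membrane genes, 8 were at least 2-fold lower in hypothyroid members at 14 dpi and none had a ratio above 1, with a median log2 ratio of -1.02 against -0.06 over all genes. Col15a1 stood at 659.6, 145, and 533 CPM at 0, 5, and 14 dpi in control and 244, 297, and 88.6 CPM in hypothyroid libraries and had a ratio of 0.166 (0.131 to 0.209). Col4a1 and Col4a2, whose promoter windows are printed above, had ratios of 0.525 (0.485 to 0.568) and 0.491 (0.441 to 0.547), and Hspg2 had 0.478 (0.419 to 0.545). In Pi16-positive cells Col4a1 was at 0.829 (0.785 to 0.875). Among the 12 fibrillar list collagens, 3 were 2-fold lower and 11 had a ratio under 1. Col3a1 was at 0.498 (0.484 to 0.513), Col5a1, a regulator of fibril thickness, at 0.357 (0.308 to 0.412), and Col1a1 at 0.584 (0.561 to 0.609). Eln was at 0.223 (0.166 to 0.294) and Mgp at 0.324 (0.303 to 0.347). Both summed lists were also lower in other hypothyroid pools of that day. Against control, the basement membrane list went from 11607 to 8130 CPM in Pi16-positive cells. It went from 10966 to 5977 CPM in endothelial and from 1424 to 666 CPM in immune cells. The fibrillar list went from 26087 to 19893, 4551 to 1247, and 1573 to 734 CPM in these classes. The lower matrix levels at 14 dpi were thus not particular to members.

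Genes of the interstitial state were also lower in the hypothyroid library at 14 dpi, and so were genes of the progenitor list. Of 18 interstitial genes kept, 7 were at least 2-fold lower and none higher, with a median ratio of 0.605. Of 12 progenitor genes kept, 5 were at least 2-fold lower and none higher, with a median ratio of 0.609. The lower levels were thus not particular to the interstitial list. Abca8a was at 0.491 (0.423 to 0.569) and Hsd11b1 at 0.494 (0.335 to 0.716), while Cxcl14, at 0.659 (0.602 to 0.721), did not reach 2-fold. Scara5, a ferritin receptor of mesenchymal progenitors, was at 0.13 (0.0789 to 0.205), beside 0.161 in endothelial and 0.13 in immune cells. Gas1, a Hedgehog coreceptor, was at 0.24 (0.188 to 0.303). Igfbp5, named above with the progenitor genes and lower in members than in Pi16-positive cells, was at 0.315 (0.266 to 0.371). Thy1 and Cd248, surface glycoproteins of fibroblasts, were at 0.071 (0.028 to 0.151) and 0.282 (0.171 to 0.448). Sfrp2, an inhibitor of Wnt signals, was lower, but 1 control cell held 91.8% of its UMIs. Rgs5, the pericyte marker, was at 0.127 (0.0936 to 0.168), and the mural list added up to 766 CPM on the control and 264 CPM on the hypothyroid diet. The part of mural RNA in this value was not tested.

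Immediate-early genes were lower as well, with 8 of 19 at least 2-fold lower and none higher. Fos was at 0.327 (0.304 to 0.353), Jun at 0.39 (0.358 to 0.425), Egr1 at 0.368 (0.335 to 0.404), and Klf4 at 0.378 (0.34 to 0.42). The list added up to 15146 CPM on the control and 8344 CPM on the hypothyroid diet, the lowest of the 6 pools. The part of this difference in the other genes was not tested. Muscle fiber genes (Pvalb, Atp2a1, Myl1, Pgam2, and Cox7a1) were lower in members and also in immune and endothelial cells, and the muscle fiber list added up to 11048 CPM on the control and 2484 CPM on the hypothyroid diet.

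**Figure D4:**
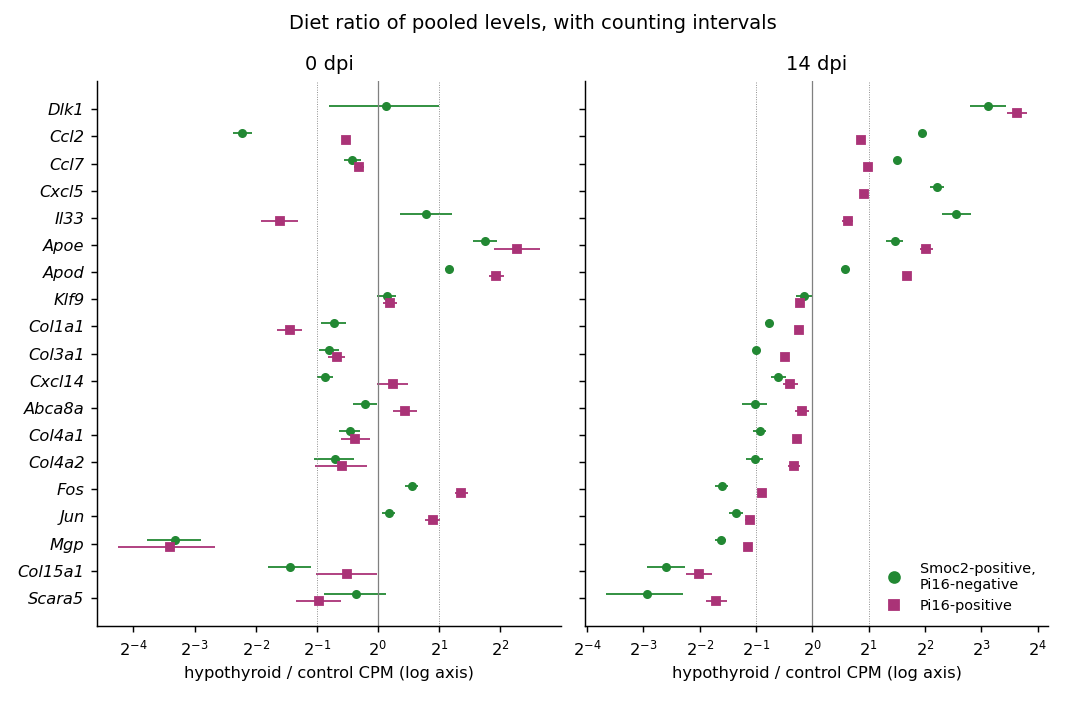
Hypothyroid-to-control ratio of pooled CPM (x axes, log2 scale) for 19 genes (y axis) at 0 dpi (left) and 14 dpi (right), in members and in Pi16-positive cells, with exact 95% intervals for counting error. Points are drawn where both pools held UMIs, and dotted lines mark 2-fold. At 14 dpi Dlk1 lay above 2-fold in both classes, Ccl2, Ccl7, Cxcl5, and Il33 lay farther from 1 in members, and Col15a1 and Scara5 lay below 2-fold in both.

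At 5 dpi the pools held 14 and 28 members, and 762 of 5016 genes were at least 2-fold higher in hypothyroid members (15.2%) and 913 lower (18.2%). Apod and Apoe led those higher together with Cryab, Fabp4, and Rsrp1, and 1 cell held 95.9% of the UMIs of Cryab and 97.8% of those of Fabp4 in the hypothyroid pool. Lif, Il11, Mmp3, Slc7a11, and Procr led those lower, and 1 control cell each held 81.7% to 100% of their UMIs. Col1a1, Col3a1, and Postn stayed within 2-fold, at 0.942 (0.851 to 1.04), 0.767 (0.707 to 0.832), and 0.967 (0.796 to 1.18). Of 17 interstitial genes kept, 8 were at least 2-fold higher in hypothyroid members and 1 lower, 15 had a ratio above 1, and the median ratio was 1.80. The deepest of the 14 control members held 25300 of the 96807 UMIs of its pool. Control levels at 5 dpi, and with them these ratios, thus lean on 1 cell. Cxcl14 was at 0.457 (0.397 to 0.525), and at 0.951 with all columns of each file. Gm10076, Ccl2, and Hspa1b were higher, and Mylpf and Acta1 lower, in members and also in immune and endothelial cells.

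Over all 3 days, 2 of 4988 genes were at least 2-fold higher in hypothyroid members each time (0.0401%), Apoe and Jdp2, and 14 were lower each time (0.281%). Among the lower genes were Ifi27l2a, an interferon-induced mitochondrial protein, Tgfb3, Gdf10, a BMP-related ligand, Cdon, a Hedgehog coreceptor, and Pcsk5, a proprotein convertase. Ifi27l2a stood at 103, 362, and 143 CPM at 0, 5, and 14 dpi in control and 9.63, 66.9, and 46.4 CPM in hypothyroid libraries. Tgfb3 stood at 23.6, 51.6, and 26.6 CPM at 0, 5, and 14 dpi in control and 9.63, 14.9, and 6.33 CPM in hypothyroid libraries. Gdf10 stood at 62.1, 114, and 91.9 CPM at 0, 5, and 14 dpi in control and 22.5, 0, and 16.9 CPM in hypothyroid libraries. These genes were thus lower in each hypothyroid pool, on few UMIs at 5 dpi. At 0 dpi the hypothyroid levels of Ifi27l2a and Tgfb3 were 3 UMIs each. For Tgfb3 at 14 dpi the 6.33 CPM stood beside 3.17 CPM for 3 UMIs. Rev3l, Lrrc8d, and Ergic1 completed the genes named by the rule, at most 103 CPM in any pool. Jdp2 had 1 control UMI at 5 dpi, and without the member with most UMIs in each pool its ratio there was 0.768. Leaving out 5 dpi, 9 genes were higher and 55 lower at both 0 and 14 dpi.

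Genes that handle thyroid hormone were measured next. Of 9 receptor, deiodinase, transporter, and cofactor genes kept, none was 2-fold apart at 0 dpi, and at 14 dpi 1 was higher and 1 lower. At 5 dpi 8 were kept, of which none was higher and 1 lower. Thra, the main receptor of muscle, stood at 89.2, 41.3, and 116 CPM at 0, 5, and 14 dpi in control and 99.5, 66.9, and 47.5 CPM in hypothyroid libraries, with a ratio of 0.409 (0.285 to 0.578) at 14 dpi. Dio2, the deiodinase that makes active hormone, stood at 77, 134, and 27.5 CPM at 0, 5, and 14 dpi in control and 83.5, 44.6, and 62.3 CPM in hypothyroid libraries, with a ratio of 2.26 (1.45 to 3.6) at 14 dpi from 21 control and 24 hypothyroid members. Slc16a10, a thyroid hormone and amino acid transporter below the level kept for the count, was at 18.4, 0, and 12.9 CPM at 0, 5, and 14 dpi in control and 6.42, 7.43, and 45.4 CPM in hypothyroid libraries. Of 6 known target genes kept, 3 were 2-fold higher in hypothyroid members at 0 dpi and 1 at 14 dpi, with none lower on those days. At 5 dpi 1 of 4 kept was higher and 2 were lower. Klf9, a direct target that hormone induces, stood at 1342, 702, and 810.2 CPM at 0, 5, and 14 dpi in control and 1484, 297, and 733 CPM in hypothyroid libraries, with ratios of 1.11 (0.994 to 1.23) at 0 dpi and 0.905 (0.819 to 0.999) at 14 dpi, less than 2-fold on both days. At 5 dpi the Klf9 ratio was 0.423 (0.279 to 0.634), with 58.8% of the control UMIs in 1 cell. Without the member with most UMIs it was 0.618, and with all columns of each file 1.15. Nr1d1, the clock repressor Rev-erbα, was higher at 0 dpi at 2.49 (1.61 to 3.83), and 4 of 10 circadian genes kept were 2-fold higher there.

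Members were mixed among themselves. Postn was found in 42.2% of control and 58.5% of hypothyroid members at 14 dpi, and Dlk1 in 12.5% and 40.7%. Members with UMIs of at least 2 tenocyte genes numbered 66, with 2 mural genes 99, with 2 endothelial genes 24, with 2 macrophage genes 10, with 2 myogenic genes 3, and with 2 glial genes 1, while 0 of 736 had 2 lymphoid genes, which allows a share of up to 0.408% by counting. Tenocyte genes summed to 41.7 to 1211 CPM over the 6 member pools, mural genes to 59.4 to 766 CPM, endothelial genes to 28.0 to 266 CPM, and macrophage genes to 2.62 to 68.7 CPM.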

How the data were processed

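Single-cell RNA-seq (10x 3′ V3) was made from digested TAM, in 6 libraries of 3 pooled mice each. The authors aligned reads with Cell Ranger in Partek Flow to mm39, left out cells by their UMIs, detected genes, and mitochondrial reads, and deposited log2(CPM + 1) values per gene and cell. Whole UMIs were recovered from these log2 values for 99.934% of 39334018 values, within 0.02 times the square root of the count. Cells were grouped by library label. Each library gave 1 pool of UMIs per class, and levels are CPM of the pool (exact Poisson intervals). Intervals of ratios are exact binomial, those of shares Clopper-Pearson, and those of share ratios a normal approximation on the log scale, all for counting error only. A fold against 0 used a floor of 3 counts. With 1 library a group, no diet or time difference was tested, and a gene was called at 2-fold with a mean of at least 20 CPM. Members and Pi16-positive cells were compared with limma 3.58.1 (R 4.3.3, trend) on log2(CPM + 1) with library as a block, Benjamini-Hochberg adjusted, at 0.05. The other values came from Python 3.11.15 with NumPy 2.4.6, SciPy 1.17.1, and pandas 2.3.3. The scripts were tested on simulated data. No doublets were removed.

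Besides genes of lists (states, matrix, signals, thyroid hormone, other cell types), genes named were those with the largest difference by the interval end nearest 1, 5 each way per day between diets and 4 each way between days, among genes whose higher pool held 50 UMIs or more and with no such difference in both immune and endothelial cells, genes apart on all 3 days, the largest of those that immune and endothelial cells shared, and the 10 largest each way by limma. Members and lists were chosen with earlier results of these data known. Alternatives were thinning, all columns, other filters, scalings, and pseudocounts, and leaving out cells or libraries. The result of 1 gene is not reported here.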

Additional observations from a re-analysis of the deposited data

Results flagged for a closer look

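Among 71 genes compared between members and Pi16-positive cells, 2 had 1 library far from the other 5, by a gap over 0.625 of the whole range. In both it was the control library at 5 dpi, with 14 members. The log2 difference of Dpp4 was -7.31 there and -3.88 to -2.16 in the others, and that of Nid1 was -1.74 there and -0.74 to -0.25 in the others. Of the 14 members 0 held a Dpp4 UMI, so -7.31 sets 0 CPM against the Pi16-positive level and is no measured size. Chance alone marks about 1 in 20 such sets.

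Several genes were at least 2-fold apart between diets in opposite directions at 0 and 14 dpi. The difference between days was not tested, since each pool is 1 library. Ccl2 had a hypothyroid-to-control ratio of 0.215 at 0 dpi and 3.85 at 14 dpi. Nefm, a neurofilament, went from 0.286 to 5.94, Comp, a tendon and cartilage matrix protein, from 0.121 to 2.13, and Csf2 from 0.19 to 2.53. For Comp the first ratio is taken against the floor of 3 counts, and for Csf2 the control UMIs at 0 dpi came from 1 cell. The Nefm ratio of 14 to 0 dpi in control was 0.0765, and 0.328 without the member with most UMIs in each pool. Its diet ratios were not recomputed that way, so the change of direction of Nefm may rest on 1 cell. Muscle fiber genes went the other way. Their ratios at 0 and 14 dpi were 2.98 and 0.325 for Acta1, 3.8 and 0.273 for Actn3, 3.4 and 0.117 for Atp2a1, 3.01 and 0.237 for Des, 2.06 and 0.181 for Mylpf, and 6.26 and 0.345 for Tuba4a.

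Columns after the first run of barcodes, which were not used, also held cells that met the rule. There were 75, 189, and 368 in the control files of 0, 5, and 14 dpi, of 442, 781, and 1122 in the gate. In the hypothyroid files of 0 and 5 dpi there were 3 and 103, of 50 and 373 in the gate.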

How the results depend on the processing

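With cells thinned to 2000 UMIs and shallower cells left out, the share ratio at 14 dpi was 1.02, and calls numbered 1084, 2594, and 1319 between diets at 0, 5, and 14 dpi, 959 for control 14 against 0 dpi, and 102 between members and Pi16-positive cells. For control 5 against 0 dpi, 83.0% of thinned calls were higher in place of 45.7%, and for hypothyroid 5 against 0 dpi 68.1% in place of 40.4%. With all columns, calls were 720 and 466 between diets at 5 and 14 dpi, 336 and 51 for control 5 and 14 against 0 dpi, 545 for hypothyroid 5 against 0 dpi, and 1623 between the classes. With a mean of at least 50 CPM, fewer genes were tested, and calls were 199, 834, and 332 between diets, 979 and 278 in control, and 1015 and 927 in hypothyroid members. The mean over members gave 2771 between diets at 5 dpi. With all cells of a library as denominator, the share ratio was 0.68 at 0 dpi and 2.25 at 5 dpi. Leaving out 1 library each left 230 to 602 calls between the classes (main 507).

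The library was the replicate block of that comparison, and with no replicate block 93 genes were called. No paired analysis was possible between diets or days because each group is 1 library. A planned count model was not run, and leaving out members with any 2 genes of another cell type left 0 members in 3 libraries.

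Of 1623 recomputed ratios of single genes, 471 moved beyond their counting interval with no turn of a called direction. With all columns these were 41 of 58 genes at 14 dpi between diets and 20 of 21 for control 14 against 0 dpi. Another 27 ratios reversed, 17 of them at 5 dpi between diets. Thinned, at 0 dpi Hbb-bs was 1.03, at 5 dpi Cdon 1.08, Slc7a11 1.08, Jdp2 0.481, and Lrrc8d 2.17, and at 14 dpi Lrrc8d 1.8 and Rev3l 1.16. With all columns Lgals3 was 0.86 at 0 dpi, Acta1 1.51, Col15a1 0.672, Fabp4 0.807, Jdp2 0.699, and Klf9 1.15 at 5 dpi, and for control 5 against 0 dpi Cxcl5 0.664 and Il1rl1 0.887. By the mean over members Lrrc8d was 1.45 at 5 dpi. Without members with 2 genes of another cell type (fiber and erythroid aside) or in the top 5% of UMIs, an alternative added after seeing the data, Fmod was 2.71 and Tac1 1.51 at 0 dpi, and Col15a1 0.982, Fabp4 0.881, Jdp2 0.587, and Procr 2.06 at 5 dpi. Other alternatives added then were leaving out members with 2 tenocyte genes (Fmod 2.16 at 0 dpi), both 5 dpi libraries (746 calls between the classes), and the member with the most UMIs, which gave Inhba 0.687 at 0 dpi and Il11 1.73, Jdp2 0.768, and Procr 1.73 at 5 dpi, and brought 15 of 175 called ratios under 2-fold. The Fmod and Tac1 ratios at 0 dpi set a hypothyroid pool without a UMI at the floor of 3 counts. They are bounds and show no higher level in hypothyroid members. Between members and Pi16-positive cells, 5 differences that were not called changed sign. These were Col1a1 and Col3a1 and, among list genes not described above, Thra (log2 difference -0.01), Klf9 (-0.03), and Lamc1 (-0.06, a laminin chain). Thinned, Thra was 0.21 and Col3a1 -0.0449. With all columns Thra was 0.084, Lamc1 0.18, Klf9 0.16, Col1a1 -0.26, and Col3a1 -0.41, and Lamb1, another laminin chain, was called. Without both 5 dpi libraries Thra was 0.17, Lamc1 0.17, and Klf9 0.066. Leaving out 1 library each gave -0.12 to 0.12 for Thra, -0.20 to 0.036 for Lamc1, -0.0723 to 0.0501 for Klf9, and -0.0543 to 0.19 for Col3a1. The cause of these shifts was not tested.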
